A study of Mus musculus with 4 samples.

Results

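Peripheral nerve runs through the mammary gland, and the Schwann cells that ensheathe its axons contribute RNA to any sample of the whole tissue. From these cells and the myelin they make, 7 genes were examined: *Mbp*, *Pmp22*, *Prx*, *Egr2*, *Sox10*, *Mag* and *Pmp2*. They were taken by name from the deposited Cuffdiff table, with the row of highest mean level kept where a name had several rows, and all 7 were found among the 21895 distinct gene names or name groups of that table. *Prx* was the only member with 2 rows.

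RNA-Seq was performed on mammary tissue from 2 *miR-21*+/+ and 2 *miR-21*-/- mice, 2 months old and on a mixed 129SV::FVB/N::C57BL/6 background. The *miR-21*-/- animals lack the microRNA, and no Cre or other tissue-restricted driver is named for this allele, so every cell type of the gland, nerve included, is compared between the genotypes. The table gives each locus a single level per genotype in FPKM, the number of fragments from a gene scaled to its exon length and to all fragments mapped, so that levels can be compared between genes per length. That level combines both mice, so the spread between mice cannot be seen, no difference has a replicate check and no p-value was computed. The sequencing depth behind the levels is unknown.

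In nerve, a myelinating Schwann cell wraps a single segment of axon in layers of its own membrane. *Sox10* encodes the transcription factor that specifies the lineage from the neural crest and is needed throughout it, and *Egr2* encodes the factor that acts with SOX10 to switch on the myelin genes. The products of *Mbp*, *Pmp22* and *Pmp2* lie in compact myelin, where they hold the membrane layers together or bind their lipids. The product of *Mag* sits on the innermost membrane, facing the axon, and that of *Prx*, periaxin, links the outer membrane to the basal lamina through a dystroglycan complex. Several of these genes are also used outside nerve: *Sox10* in mammary epithelium and melanocytes, *Egr2* in lymphocytes, *Pmp22* and an upstream form of *Mbp* in many cell types.

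Because the microRNA is what the *miR-21*-/- mice lack, its mature sequence is shown first, from the RefSeq record, with the seed that pairs with target transcripts (bases 2 to 8) in capitals.
mmu-miR-21a-5p: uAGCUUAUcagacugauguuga
A transcript that pairs with this seed carries the letters ATAAGCT. In the GENCODE annotation of mm9 the 7 members have 30 3′ UTRs, 13 of them from transcripts of *Mbp*. Of the 30, 0 held the letters on the transcribed strand. The longest per gene ran from 528 nt for *Mag* to 4701 nt for *Prx*. Among all genes whose longest 3′ UTR was 0.5 to 1.5 times as long, the share with the letters was 2.33% at the length of *Mag* and 16.9% at that of *Prx*. Most genes of such lengths thus lack the letters, and this is a search for letters only.

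The deletion itself could not be read from these data. Poly(A) RNA does not measure the mature microRNA, and *Mir21* has no level apart from that of *Vmp1*. The locus that joins *Mir21* and its host gene *Vmp1* was listed at 42.5 FPKM in *miR-21*+/+ and 68.2 FPKM in *miR-21*-/- tissue. The FPKM values of loci with a gene name summed to 380567 and 355385, and those of loci without a name to 378728 and 820218. Values were used as deposited, with a median log2 ratio of −0.03 over named loci. Scaling both columns to the same sum over all loci, called the same sum below, moves every log2 ratio by −0.63 and that median to −0.66. Scaling to equal sums over named loci moves every log2 ratio by 0.10 and that median to 0.07. Directions below thus hold for the deposited scale, and differences between genes hold for any.

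Of the structural myelin genes, those with a mean of at least 1 FPKM, *Mbp*, *Pmp22* and *Prx*, differed by 1.06 to 1.19-fold between the genotypes. The transcription factors differed more than these, and in opposite directions. *Sox10* was 2.19-fold higher and *Egr2* 1.73-fold lower in *miR-21*-/- tissue. Of the 5 members with a mean of at least 1 FPKM over both genotypes, these were the 2 that differed by 1.5-fold or more. The same held for 10.8% of the 13096 named loci above that minimum, 4.99% being higher and 5.77% lower in *miR-21*-/- tissue. With both columns at the same sum, 0 of the 5 were higher and 3 lower by 1.5-fold, beside 0.859% and 65.2% of named loci. Only *Sox10* passed 2-fold, as did 1.71% of named loci in its direction. The median log2 ratio of the 5 members was −0.09, beside −0.03 for all named loci. *Mag* and *Pmp2* were under the minimum in both genotypes, and were 1.14-fold and 1.55-fold lower in *miR-21*-/- tissue.

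**Figure D1:**
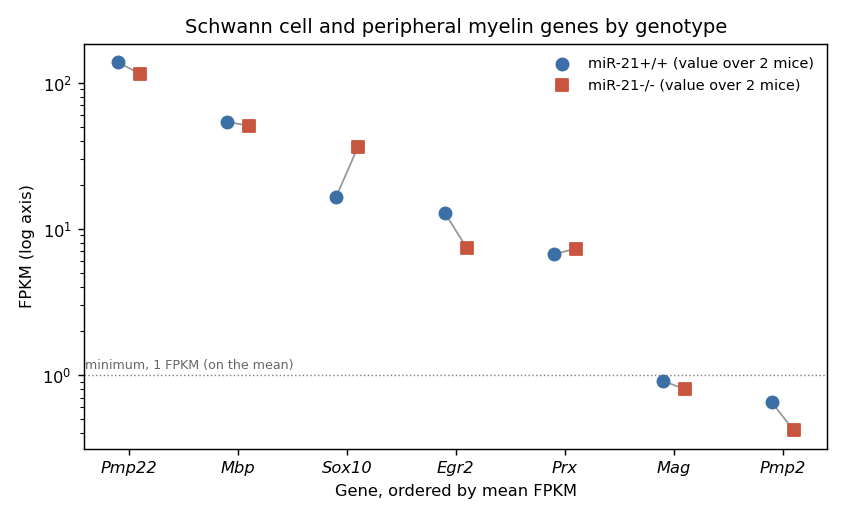
FPKM on a log axis for the 7 genes, ordered by mean level; circles give the *miR-21*+/+ value and squares the *miR-21*-/- value, each a single value over 2 mice without an error bar. *Sox10* is the only gene whose square lies clearly above its circle (16.4 and 36.1 FPKM), *Egr2* lies lower in *miR-21*-/- tissue (12.8 and 7.41 FPKM), and *Mag* and *Pmp2* lie under 1 FPKM.

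*Sox10* (ENSMUSG00000033006.8) is read from the minus strand of chromosome 15 (mm9, 78985343 to 78994920). It was listed at 16.4 FPKM in *miR-21*+/+ and 36.1 FPKM in *miR-21*-/- tissue, a log2 ratio of 1.13. Its level was the third highest of the 7 in both genotypes. With both columns brought to the same sum the log2 ratio was 0.50, under 1.5-fold.

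*Egr2* (ENSMUSG00000037868.8) is read from the plus strand of chromosome 10 (66998263 to 67004936). It was listed at 12.8 FPKM in *miR-21*+/+ and 7.41 FPKM in *miR-21*-/- tissue, a log2 ratio of −0.79. The ratio of *Sox10* to *Egr2*, which no scaling of the columns can alter, was 1.29 in *miR-21*+/+ and 4.87 in *miR-21*-/- tissue. The pair of factors thus stood at similar levels per length in one genotype and far apart in the other.

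*Pmp22* (ENSMUSG00000018217.6, chromosome 11, 62942448 to 62973123) encodes a small membrane protein of compact myelin whose dosage is altered in inherited neuropathies. It had the highest level of the 7, 137 FPKM in *miR-21*+/+ and 115 FPKM in *miR-21*-/- tissue, a log2 ratio of −0.26. Only 1.85% of named loci had a higher mean level. *Mbp* (ENSMUSG00000041607.10, chromosome 18, 82644439 to 82755029), whose basic protein joins the cytoplasmic faces of the myelin membrane, was listed at 53.9 and 50.8 FPKM, a log2 ratio of −0.09. The locus spans both starts of the gene: 4 of its 16 annotated transcripts begin at the upstream start, between 82644538 and 82644762, and the other 12 begin between 82723855 and 82732654. The upstream start gives the Golli forms, which are also made outside myelinating cells, and the deposited level does not separate them from the myelin forms.

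*Prx* (ENSMUSG00000053198.7, chromosome 7, 28284343 to 28305183) was listed at 6.69 FPKM in *miR-21*+/+ and 7.32 FPKM in *miR-21*-/- tissue, a log2 ratio of 0.13. A second row with the same name and coordinates held 0.487 and 0.528 FPKM, a log2 ratio of 0.12. *Mag* (ENSMUSG00000036634.8, chromosome 7, 31684202 to 31699870) was listed at 0.914 and 0.799 FPKM, a log2 ratio of −0.19. *Pmp2* (ENSMUSG00000052468.6, chromosome 3, 10179851 to 10183885), which encodes a fatty acid binding protein of myelin, had the lowest level, 0.650 and 0.418 FPKM, a log2 ratio of −0.64. At such low levels the ratio depends on how it is formed, and with 1 FPKM added to both values that of *Pmp2* was −0.22.

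The order of the 7 genes by level was the same in both genotypes. In *miR-21*-/- tissue *Egr2* and *Prx* were almost level, at 7.41 and 7.32 FPKM. Whether neighbours in this order differ beyond the spread between mice cannot be judged from single values.

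*Mbp* served as a reference for the other members within each genotype, chosen after its values were seen. Relative to *Mbp*, *Pmp22* stood at 255% in *miR-21*+/+ and 227% in *miR-21*-/- tissue, *Prx* at 12.4% and 14.4%, and *Mag* at 1.70% and 1.57%. The log2 differences of these proportions between the genotypes ran from −0.17 to 0.22. *Pmp2*, the lowest member, went from 1.21% to 0.824%, a log2 difference of −0.55. *Sox10* moved from 30.5% of the *Mbp* level to 71.1%, a log2 difference of 1.22, and *Egr2* from 23.7% to 14.6%, a log2 difference of −0.70. In whole tissue, more cells of a type and more RNA per cell cannot be told apart.

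Other genes of Schwann cells were described by role from lists of 55 genes, of which 53 were in the table and 39 passed the minimum. By 1.5-fold or more, 5 of the 39 were higher and 2 lower in *miR-21*-/- tissue, and their median log2 ratio was 0.06. Of all named loci above the minimum, 4.99% were higher and 5.77% lower. With both columns at the same sum, 0 of the 39 were higher and 18 lower by 1.5-fold, beside 0.859% and 65.2% of named loci. Some loci carry a mark in the deposited table that the authors' comparison failed there. Without those loci, 31 were left, of which 3 were higher and 2 lower, beside 5.22% and 5.89% of named loci.

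Among 3 other genes listed under compact myelin, not all of them confined to it, none differed by 1.5-fold. Their log2 ratios ran from −0.21 to 0.29. *Cd9*, a tetraspanin made by many cell types, was listed at 136 and 166 FPKM. *Mal*, a membrane raft protein of myelin and epithelia, was listed at 5.18 and 5.28 FPKM, and *Cldn19*, a claudin of Schwann cells, at 2.74 and 2.37 FPKM. Of the noncompact myelin and adhesion genes 6 passed the minimum, and 1 of these differed by 1.5-fold. *Drp2*, whose product binds periaxin in the dystroglycan complex, was listed at 4.35 FPKM in *miR-21*+/+ and 6.73 FPKM in *miR-21*-/- tissue, a log2 ratio of 0.63, at a locus marked as failed. *Dag1* (58.4 and 60.9 FPKM) and *Utrn* (21.1 and 21.4 FPKM) of the same complex, both marked as failed, and *Cnp* (18.6 and 18.0 FPKM), a myelin enzyme, were at similar levels.

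Genes listed for myelin glycolipid synthesis, not all of them confined to myelin, were at low levels and lower in *miR-21*-/- tissue. *Fa2h*, which hydroxylates the fatty acids of myelin galactolipids, was listed at 1.56 and 1.00 FPKM, a log2 ratio of −0.63. *Degs2*, a sphingolipid hydroxylase, was listed at 2.05 and 1.35 FPKM, a log2 ratio of −0.60. *Ugt8a*, which makes galactosylceramide, was listed at 2.34 and 2.05 FPKM, a log2 ratio of −0.19. With 1 FPKM added to both values, no gene of the 39 was lower by 1.5-fold. With equal sums over named loci, 0 of 40 other Schwann cell genes above the minimum were lower by 1.5-fold. The share of named loci was not computed for either setting.

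Of the other transcription factors, 7 of 12 in the table passed the minimum and only *Jun*, a factor of injured and repair Schwann cells and of many other cells, reached 1.5-fold. It was listed at 21.2 FPKM in *miR-21*+/+ and 31.8 FPKM in *miR-21*-/- tissue, a log2 ratio of 0.59 that lies at the limit itself. *Nab2*, a cofactor that EGR2 binds, was listed at 11.0 and 14.8 FPKM and *Zeb2*, in a locus shared with *Mir5129*, at 16.5 and 18.4 FPKM. *Pou3f1*, the factor of the promyelinating stage, was at 0.134 and 0.137 FPKM, and *Sox2*, of immature cells, at 0.0783 and 0.0947 FPKM.

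**Figure D2:**
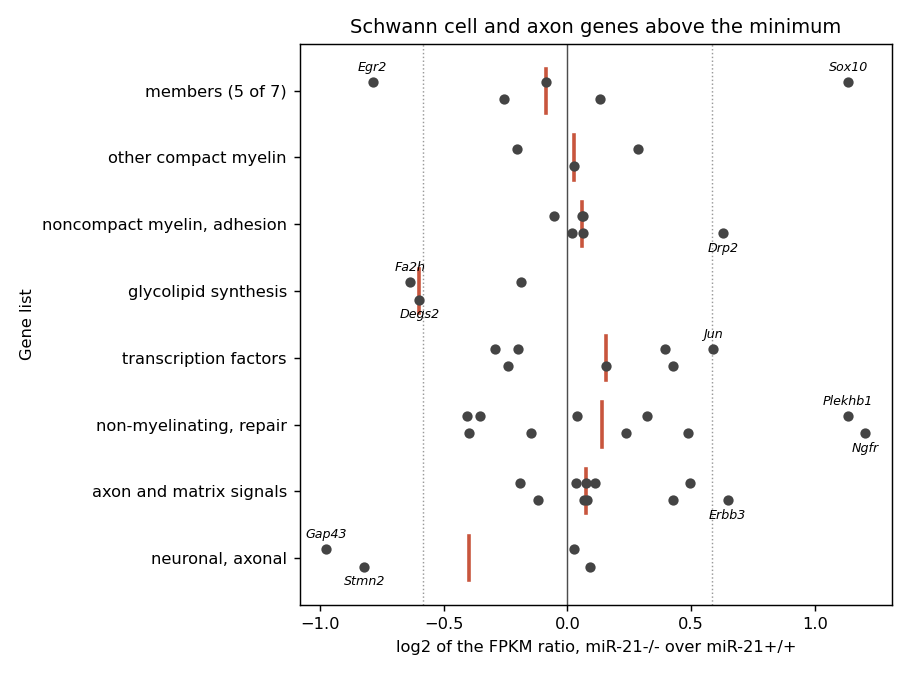
Each point is a gene with a mean of at least 1 FPKM, placed by the log2 of its FPKM ratio, *miR-21*-/- over *miR-21*+/+; bars mark the median of each list and dotted lines 1.5-fold. Genes listed under other compact myelin, not all confined to it, lie between −0.21 and 0.29. *Sox10* (1.13), *Ngfr* (1.20) and *Plekhb1* (1.13) lie farthest to the right. *Egr2* (−0.79), *Gap43* (−0.97) and *Stmn2* (−0.82) lie farthest to the left. *Drp2* (0.63) and *Fa2h* (−0.63) and *Degs2* (−0.60) of the glycolipid list lie just past 1.5-fold.

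Of 14 genes of non-myelinating, immature or repair Schwann cells, 10 passed the minimum and 2 were higher by 1.5-fold. *Ngfr*, the p75 neurotrophin receptor, which is also made by basal epithelial cells, was listed at 6.29 FPKM in *miR-21*+/+ and 14.5 FPKM in *miR-21*-/- tissue, a log2 ratio of 1.20. *Plekhb1*, at a locus marked as failed, was listed at 29.0 and 63.6 FPKM, a log2 ratio of 1.13. *Scn7a*, a sodium channel gene of non-myelinating Schwann cells, also marked as failed, was listed at 33.6 and 42.0 FPKM, and *Art3* at 92.2 and 83.2 FPKM. The list was mixed, and the log2 ratios of its 10 genes ran from −0.41 for *S100b* to 1.20, with a median of 0.14.

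Myelination is driven by neuregulin on the axon, read by ErbB2 and ErbB3 on the Schwann cell, and by laminin in the basal lamina. *Erbb3* was listed at 14.3 FPKM in *miR-21*+/+ and 22.3 FPKM in *miR-21*-/- tissue, a log2 ratio of 0.65. It was the only gene of 10 in this list to differ by 1.5-fold. Levels in whole tissue do not separate Schwann cells from epithelium, and the part of epithelial RNA in the level of *Erbb3* was not tested. *Lama2*, a chain of the Schwann cell laminin, was listed at 40.6 and 35.6 FPKM, *Lamb2*, in a locus shared with *Usp19* and marked as failed, at 60.5 and 63.8 FPKM, and the laminin receptor gene *Itga6* at 29.8 and 31.2 FPKM. *Nrg1*, the ligand itself, was under the minimum at 0.671 and 0.570 FPKM.

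Nerve cell bodies lie outside the gland, and genes of neurons and axons were low in the table. Of 12, 4 passed the minimum, with log2 ratios from −0.97 to 0.09. *Gap43*, a growth cone gene that Schwann cells can also make, was listed at 1.89 FPKM in *miR-21*+/+ and 0.965 FPKM in *miR-21*-/- tissue, and *Stmn2* at 1.81 and 1.02 FPKM. *Uchl1* was at 1.75 and 1.78 FPKM. The neurofilament genes *Nefl*, *Nefm* and *Nefh* did not exceed 0.124 FPKM.

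Oligodendrocytes make myelin in the central nervous system, and 5 of 7 genes listed for them were under the minimum. *Opalin* and *Olig2* were listed at 0 in both genotypes, *Mog* and *Mobp* did not exceed 0.0569 FPKM, and *Ermn* was at 0.0889 and 0.119 FPKM. The other two were *Aspa*, at 19.4 and 19.8 FPKM, and *Cldn11*, a claudin of oligodendrocyte myelin that other tissues also make, at 0.530 FPKM in *miR-21*+/+ and 3.91 FPKM in *miR-21*-/- tissue, a log2 ratio of 2.89. The tissue itself carried mammary markers, with 576 and 782 FPKM summed over 6 luminal epithelial genes and 10251 and 7471 FPKM over 5 adipocyte genes.

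Since *Sox10* is also made by mammary epithelium, markers of that tissue were set beside it. All 6 genes listed as myoepithelial, not all of them confined to that cell type, were higher in *miR-21*-/- tissue. Of these, 5 were higher by 1.5-fold or more, beside 4.99% of named loci. Log2 ratios ran from 0.52 to 1.47 with a median of 0.73. However, with both columns at the same sum 4 were higher and 2 lower and the median was 0.10. The summed level of the 6 genes, most of it from *Acta2*, was 325 FPKM in *miR-21*+/+ and 526 FPKM in *miR-21*-/- tissue. *Krt14*, also in this list, is in a locus shared with *Krt16*. *Acta2* was listed at 222 and 341 FPKM, *Krt5* at 29.8 and 42.7 FPKM, and *Oxtr*, the oxytocin receptor gene, at 17.5 and 48.7 FPKM. All 6 luminal genes were higher too, 2 of them by 1.5-fold, with a median of 0.50 that turned to −0.13 at the same sum. *Krt19* was listed at 223 and 247 FPKM, and *Krt18* at 148 and 216 FPKM. The ratio of *Sox10* to *Krt5* was 0.552 in *miR-21*+/+ and 0.844 in *miR-21*-/- tissue, and that of *Sox10* to *Krt14* 0.718 and 0.933. With luminal genes the ratio was 0.138 and 0.183 for *Krt8*, 0.111 and 0.167 for *Krt18*, and 0.882 and 1.00 for *Elf5*. Of the ratios formed, only that of *Sox10* to *Oxtr* was lower in *miR-21*-/- tissue, at 0.937 and 0.741. Of the 5 melanocyte genes, *Mlana* alone passed the minimum and was higher in *miR-21*-/- tissue, as *Sox10* was, at 0.287 and 2.19 FPKM, a log2 ratio of 2.94. *Tyr* was at 1.02 and 0.959 FPKM, *Pmel* at 0.350 and 0.347 FPKM, and *Dct* and *Tyrp1* did not exceed 0.0522 FPKM. The part of epithelial or melanocyte RNA in the level of *Sox10* was not tested.

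*Egr2* is induced in activated lymphocytes and by many growth stimuli, and markers of both were set beside it. All 5 T cell genes were lower in *miR-21*-/- tissue, with log2 ratios from −2.57 to −1.83, and their summed level was 28.5 FPKM in *miR-21*+/+ and 6.22 FPKM in *miR-21*-/- tissue. All 5 B cell genes were lower, with a median of −3.36, 4 of them by 1.5-fold. *Cd3e* was at 7.26 and 1.22 FPKM, *Cd3g* at 7.70 and 1.65 FPKM, and *Cd79b* at 12.3 and 2.88 FPKM. *Cd79a*, in a locus shared with *Arhgef1*, was at 70.3 and 48.3 FPKM. The log2 ratio of *Egr2*, −0.79, was smaller in size than those of all 5 T cell genes and of 4 of the 5 B cell genes, the exception being *Cd79a* at −0.54. The ratio of *Egr2* to *Cd3e* was 1.76 in *miR-21*+/+ and 6.06 in *miR-21*-/- tissue. The part of lymphocyte RNA in its level was not tested.

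The immediate early genes, to which *Egr2* belongs by its regulation, stood the other way. All 6 that passed the minimum were higher in *miR-21*-/- tissue, 3 of them by 1.5-fold, with a median log2 ratio of 0.60, and with both columns at the same sum 3 were higher and 3 lower with a median of −0.03. *Egr1* was listed at 7.89 FPKM in *miR-21*+/+ and 16.0 FPKM in *miR-21*-/- tissue, *Ier2* at 13.2 and 15.8 FPKM and *Egr3* at 2.14 and 2.50 FPKM. The ratio of *Egr2* to its relative *Egr1* was 1.62 in *miR-21*+/+ and 0.462 in *miR-21*-/- tissue.

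**Figure D3:**
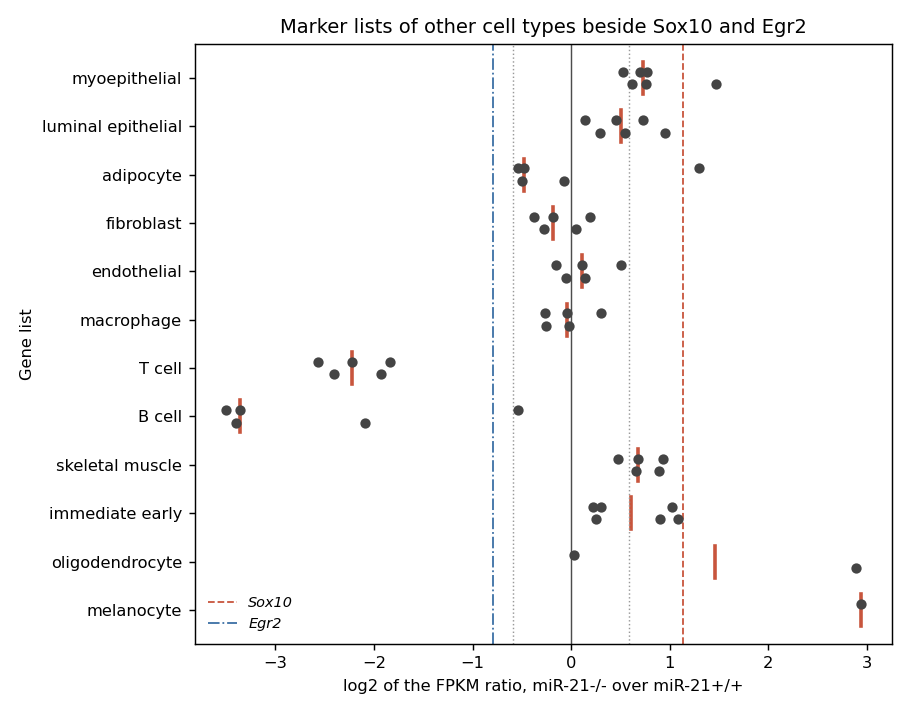
Points are genes of 12 marker lists with a mean of at least 1 FPKM, placed by the log2 of the FPKM ratio, *miR-21*-/- over *miR-21*+/+; bars mark list medians, dotted lines 1.5-fold, the dashed line *Sox10* (1.13) and the dash-dotted line *Egr2* (−0.79). On the deposited scale, myoepithelial, luminal and immediate early genes lie to the right of 0, while at equal sums of both columns 4 of 6, 2 of 6 and 3 of 6 do; T cell genes lie to the left of *Egr2* on either.

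Markers of 5 further cell types were also set beside the members. Fibroblast, endothelial and macrophage genes had medians of −0.18, 0.11 and −0.04, with none of 15 differing by 1.5-fold, among them *Col3a1* (1999 and 1654 FPKM), *Dcn* (809 and 839 FPKM), *Cdh5* (43.8 and 47.3 FPKM), *Cldn5* (36.0 and 51.3 FPKM), *Lyz2* (381 and 319 FPKM) and *Cd68* (255 and 252 FPKM, in a locus shared with *Eif4a1* and *Senp3*). With both columns at the same sum all 15 were lower, with medians of −0.81, −0.52 and −0.68. Of the 5 adipocyte genes 4 were lower, 0 of them by 1.5-fold, including *Fabp4* (7677 and 5523 FPKM) and *Adipoq* (1207 and 853 FPKM). The other, *Lep*, was higher, at 27.7 FPKM in *miR-21*+/+ and 67.9 FPKM in *miR-21*-/- tissue, a log2 ratio of 1.29. It alone of this list passed 1.5-fold. The list median was −0.48, or −1.11 with 4 still lower at the same sum. The 5 skeletal muscle genes were all higher, 4 of them by 1.5-fold, including *Acta1* (328 and 526 FPKM) and *Ckm* (214 and 338 FPKM), with a median of 0.68, or 0.05 and 4 of 5 higher at the same sum. The part of these tissues in the levels of the members was not tested.

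Promoter windows of 300 bases, from 250 before to 50 after each annotated start, were available from RefSeq (GRCm38.p6) for *Pmp22*, *Prx*, *Egr2* and *Mag*. They were searched on both strands for the letters ACAAAG, the core that SOX factors read, and GCGTGGGNG, the core that EGR factors read. The SOX letters were in 2 of the 3 *Mag* windows and in none of the 10 windows of the other genes, beside 18.7% of all 32851 windows. The EGR letters were in none of the 13 windows, beside 1.90% of all. The match, in overlapping windows of *Mag*, is shown in the direction of the gene with the letters in capitals, which here read on the opposite strand, at chr7:30914976-30914997.
Mag promoter: aagggcccCTTTGTgcccccct
A match of letters is a description and shows no binding.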

How the data were processed

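Poly(A) RNA from mammary tissue of 4 mice, 2 per genotype, was sequenced by the authors as single-end reads, aligned to mm9 with TopHat and summarised with Cufflinks. The authors deposited one Cuffdiff table with a single FPKM value per locus and genotype. Program versions, the gene annotation and the normalization options are not given in the sources used here. The table also holds the authors' own fold change, test statistic, p-value, q-value and call for each locus, which were not used, and a status mark, used to name loci where their comparison failed and to repeat counts without them.

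From the FPKM values a plain log2 ratio was computed in Python 3.11.15 (numpy 2.4.6, pandas 2.3.3; plots by matplotlib 3.10.9). One row was kept per name, that of highest mean FPKM. Calls of 1.5-fold or 2-fold required a mean of at least 1 FPKM over both genotypes. Counting was tested on simulated data. Mice could not be tested against each other, and the limma fit planned for a column per mouse was not run. Table starts count from 0 and are given counting from 1. Genes named are the 7 members, genes of the Schwann cell and axon lists at 1.5-fold or among the 3 highest of their list, the 2 highest of each other list, and genes set beside a member. Low or absent genes, those at the end of a range and ratio partners were named after their values were seen. The members and lists were chosen with earlier results of these data known. Some genes of the lists are not reported here and enter no count or plot.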

Additional observations from a re-analysis of the deposited data

How the results depend on the processing

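No paired analysis was possible because both mice of a genotype share 1 deposited value, and for the same reason no mouse could be left out in turn. A log2 ratio was taken as moved when it changed by 0.1 or more, and a count when it changed by more than 1.5 times or to or from 0. Equal sums over all loci lowered every log2 ratio by 0.63, to 0.50 for *Sox10*, −1.42 for *Egr2*, −0.50 for *Prx*, −0.72 for *Mbp* and for the member median, −0.89 for *Pmp22*, −0.82 for *Mag* and −1.27 for *Pmp2*. Under it 0 members were higher by 1.5-fold or 2-fold, 3 were lower by 1.5-fold and 1 by 2-fold, and of the 39 other Schwann cell genes 0 were higher and 18 lower by 1.5-fold, beside 0.859% and 65.2% of all named loci. A pseudocount of 1 gave −0.089 for *Mag* and −0.22 for *Pmp2*, and 3 higher and 0 lower other Schwann cell genes; a pseudocount of 0.1 gave −0.53 for *Pmp2*. With a minimum of 0.5 FPKM, or none, *Mag* and *Pmp2* entered, the member median was −0.19 and 2 of 7 members were lower by 1.5-fold. With a minimum of 5 FPKM, 0 of 26 other Schwann cell genes were lower by 1.5-fold, and with equal sums over named loci 0 of 40. The share of named loci was not computed at these minimums, with a pseudocount or with equal sums over named loci. Nor was it computed for 2-fold at equal sums over all loci, so these counts have no share beside them. Leaving out loci marked as failed, chosen after seeing the data, left 3 other Schwann cell genes higher. Another 75 values stayed within these limits. Depth is unknown, which limits what the values under 1 FPKM of *Mag* and *Pmp2* can show.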

Other observations

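*Gfap*, of non-myelinating Schwann cells and under the minimum, was listed at 0.138 FPKM in *miR-21*+/+ and 0.526 FPKM in *miR-21*-/- tissue, and was named after its values were seen. This difference has no replicate check.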
